A study of Mus musculus with 24 samples.

Results

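The mRNAs of *Atf4*, *Atf5*, *Ddit3*, *Ppp1r15a*, *Ppp1r15b*, *Ifrd1*, *Slc35a4* and *Eprs1* are known for being held back by upstream open reading frames until a cell is stressed. They were chosen by gene symbol for this known property and not by their values, though with earlier results of these data known. They are 8 of the 24079 genes counted. All of the symbols matched as written except *Eprs1*, which was listed under its older symbol *Eprs*. The 8 mRNAs were measured in every library, with 91 reads (*Ppp1r15a*) to 4630 reads (*Atf4*) per library, and each of them passed the filter on low counts in every comparison.

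The study asked whether phosphorylation of ribosomal protein S6 (rpS6) influences which mRNAs are translated in the striatum. Dorsal striatum (DS) and nucleus accumbens (Acb) came, under basal conditions, from male and female rpS6P-/- knockin mice (KI) and their wild-type littermates (wt), on a mixed C57Bl/6/Sv129/ICR background. In KI mice every phosphorylation site of rpS6 is changed to alanine from the germline on, so all cell types of the tissue carry the mutation. Tissue of several mice was pooled for each biological replicate, which has a Total library, from unfractionated lysate, and a Heavy library, from pooled sucrose gradient fractions with polysomes of about 4 or more ribosomes, with 3 biological replicates for each region and genotype and 24 libraries in all.

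Ribosomes scan an mRNA from its 5′ end, and an upstream ATG in the leader, the part before the main reading frame, can engage them before they reach the main start codon. When kinases phosphorylate the initiation factor eIF2, active eIF2 becomes scarce, translation falls in general, and mRNAs with suitable upstream frames are translated more, because scanning ribosomes then pass an inhibitory upstream start. This is the integrated stress response, in which ATF4 is the central transcription factor and the phosphatase subunits GADD34 (*Ppp1r15a*) and CReP (*Ppp1r15b*) restore eIF2.

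The upstream frames were read from 1 annotated transcript for each gene (GENCODE M21, GRCm38). The short stretches around start codons below show how the members differ in what a scanning ribosome meets. In every stretch the capitals mark the ATG and, where a whole upstream frame is shown, also its stop codon.
Atf4 upstream ATG 2, whole frame: ATGgcgtatTAG
Atf4 upstream ATG 3: gcctaagccATGgcg
Atf4 main ATG: ccccacaacATGacc
Atf5 upstream ATG 1, whole frame: ATGgctctgTAG
Atf5 upstream ATG 2: ttcgccgccATGgag
Atf5 main ATG: gtcacagccATGtca
Ddit3 upstream ATG 1: gattatatcATGttg
Ddit3 upstream ATG 2: atgttgaagATGagc
Ddit3 main ATG: cgtgcagtcATGgca
Ppp1r15b upstream ATG 1, whole frame: ATGacgTGA
Ifrd1 upstream ATG 1: gagagaaacATGtat
Ifrd1 main ATG: cggcccacgATGccg
Eprs1 main ATG: tcctgggagATGgcg

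*Atf4* (chr15:80255184-80257545, plus strand) and *Atf5* (chr7:44812256-44816658, minus strand) share a layout. In *Atf4* the second of 3 upstream ATGs, at chr15:80255582-80255593, opens a frame of 4 codons including the stop, and the third opens a frame of 60 codons that runs past the main ATG. *Atf5* has the same pair, a frame of 4 codons at chr7:44816526-44816537 followed by a frame of 59 codons that overlaps the main start. The stretch shown around the third upstream ATG of *Atf4*, and that around the second of *Atf5*, crosses an exon junction of the 5′ leader, and the main ATG of *Atf4* (chr15:80256290-80256304) and of *Atf5* (chr7:44815161-44815175) lies in an internal exon.

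*Ddit3* (chr10:127290793-127296291, plus strand), which encodes the stress-induced transcription factor CHOP, has 2 upstream ATGs in the same frame, giving frames of 35 and 32 codons that share a stop codon ahead of the main ATG at chr10:127295332-127295346. GENCODE lists the longer of these frames as a coding sequence of its own, with 34 codons without the stop. *Ppp1r15a* (chr7:45522917-45526268, minus strand) has 7 upstream ATGs in a leader of 764 bases, the last in a frame that overlaps the main start. *Ppp1r15b* (chr1:133131166-133139800, plus strand) has 3 in a leader of 604 bases, the shortest with a frame of 3 codons including the stop. *Ifrd1* (chr12:40203129-40223189, minus strand), a transcriptional co-regulator of differentiation and regeneration, has 1, with a frame of 53 codons. *Slc35a4* (chr18:36679215-36683862, plus strand), a member of the nucleotide sugar transporter family, has 18 in a leader of 1099 bases, and its seventh opens a frame of 104 codons including the stop that GENCODE also lists as coding. *Eprs1* (chr1:185361417-185428360, plus strand), the glutamyl-prolyl-tRNA synthetase, has no upstream ATG in its leader of 154 bases, and its described upstream starts are codons other than ATG.

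**Figure D1:**
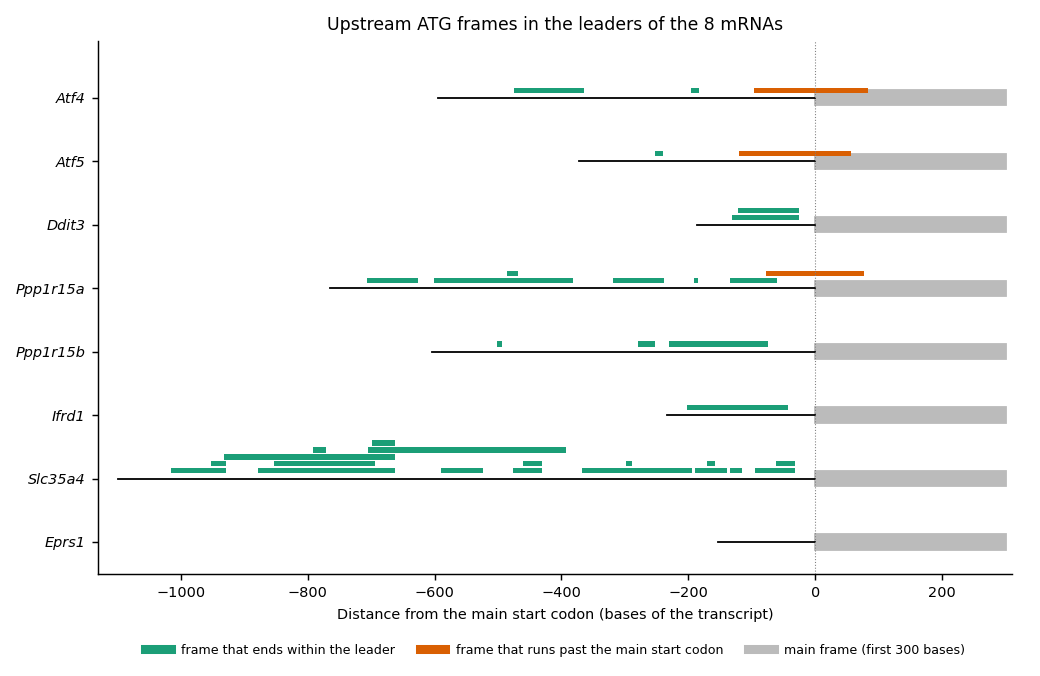
Upstream ATG frames in the 5′ leaders of the 8 mRNAs, with distance from the main start codon in bases of the transcript on the horizontal axis, leaders as lines, upstream frames as coloured bars and the first bases of the main frame in grey. Of 36 upstream ATGs, 33 open frames that end within the leader (green) and 3, in *Atf4*, *Atf5* and *Ppp1r15a*, open frames that run past the main start (orange).

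An upstream ATG was present in 7 of the 8 members. The share was 53.5% among 11639 genes with a mean of 50 or more reads and an annotated leader. A frame overlapping the main start was present in 3 of the 8, against 16.8% of those genes. The members were chosen for their upstream frames, so these shares describe the choice and are no result of the data. Polysome loading of all genes was set against their number of upstream ATGs. The median log2 Heavy over Total of genes with 0, 1, 2, 3 to 5 and 6 or more upstream ATGs lay between 0.03 and 0.07 in the Acb of wt mice, between 0.05 and 0.08 in the Acb of KI mice, between -0.03 and 0.03 in the DS of wt mice and between -0.01 and 0.08 in the DS of KI mice. With the trend on transcript length removed, genes with 0 and with 6 or more upstream ATGs had medians of -0.06 and 0.11 in the Acb of wt mice, -0.04 and 0.03 in the Acb of KI mice, 0.03 and 0.19 in the DS of wt mice, and 0.01 and 0.21 in the DS of KI mice. Transcript length includes the leader in which upstream ATGs were counted. With the trend on coding length removed instead, these medians were -0.08 and 0.06, -0.07 and -0.01, 0.01 and 0.10, and -0.03 and 0.06 in the same order. Other annotated transcripts differ, with 3 upstream ATGs in place of 7 for *Ppp1r15a*, 6 in place of 2 for *Atf5*, 2 in place of 1 for *Ifrd1* and 11 or 12 in place of 18 for *Slc35a4*, and gene counts do not tell which transcript was present.

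Libraries held 1.11e+07 to 3.47e+07 reads in Heavy and 9.28e+06 to 2.03e+07 in Total. The mutation of KI mice changes codons within *Rps6*, so read counts per gene cannot check the genotype labels. The striatal origin was visible in the 10 markers of medium spiny neurons, the main neurons of both regions, which summed to 4285 to 7135 CPM (read counts scaled to a common library size) with none at 0. Markers of cortical excitatory neurons summed to 69.2 to 213 CPM in the Acb and 739 to 1030 CPM in the DS, and those of astrocytes to 1295 to 2444 CPM and 738 to 1657 CPM, so the regions differ in other cell types as well. Among the Heavy libraries, Acb wt replicate 3 and Acb KI replicates 2 and 3 stood apart by their content of *Bc1*, a small neuronal RNA that is not translated. *Bc1* made up 0.897 to 1.16% of their reads and 1.76 to 3.85% in the other 9 Heavy libraries.

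Per kilobase of transcript, the 8 mRNAs spanned a wide range of abundance. The median over the 24 libraries, in CPM per kilobase, was 54.7 for *Atf4*, 29.5 for *Ddit3*, 15.6 for *Slc35a4*, 13.1 for *Ppp1r15b*, 8.96 for *Eprs1*, 8.84 for *Ifrd1*, 8.27 for *Atf5* and 4.35 for *Ppp1r15a*. *Atf4*, *Atf5*, *Ddit3*, *Ppp1r15a* and *Slc35a4* had their lowest group mean in Acb KI Heavy. When the 8 groups of 3 libraries were ordered by mean CPM, neighbours overlapped in 7 of 7 steps for *Atf5*, *Ppp1r15a* and *Slc35a4* and in 6 of 7 for the other members. For *Eprs1* the step without overlap separated all Total groups (54.4 to 62.0 CPM) from all Heavy groups (27.2 to 32.5 CPM). For *Atf4* it lay between the neighbours DS wt Total (mean of 121 CPM) and Acb wt Total (93.4 CPM). In bulk tissue, fewer cells of a type and less RNA per cell cannot be told apart.

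**Figure D2:**
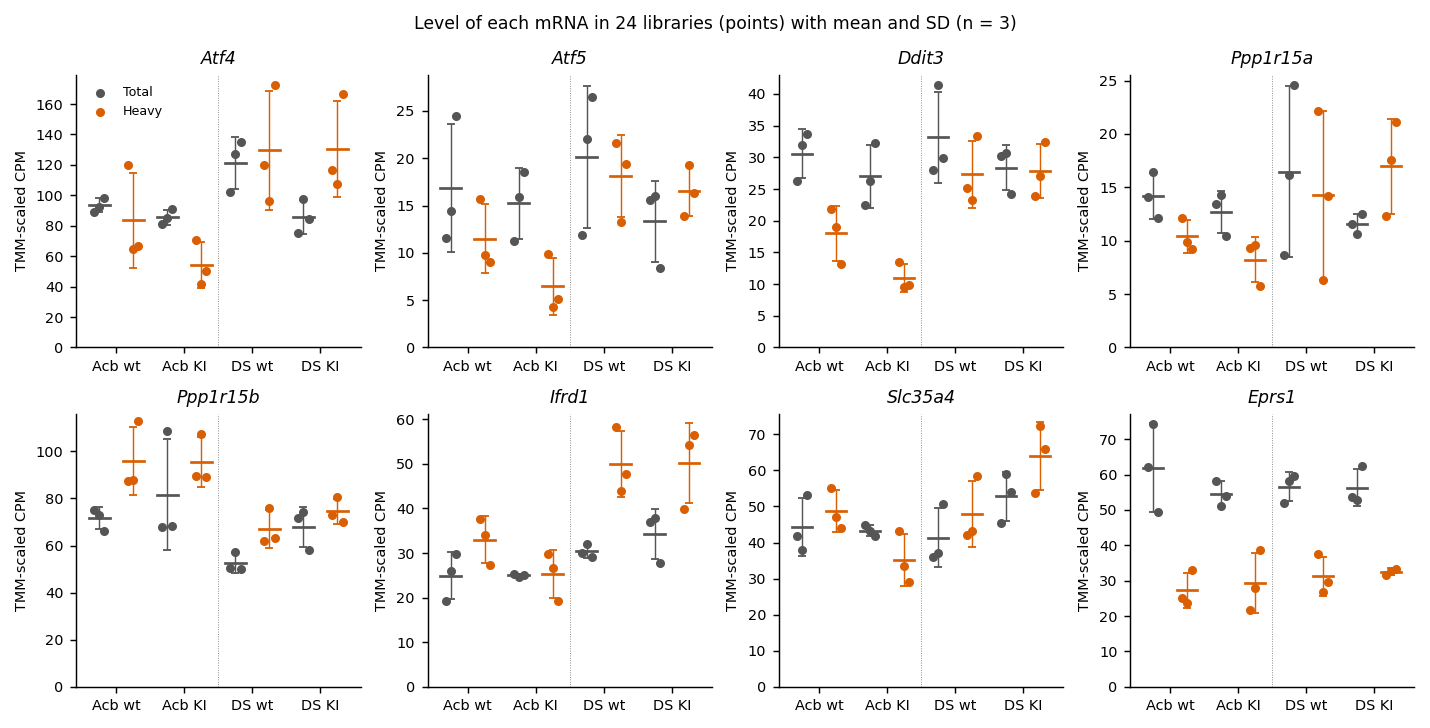
CPM of each of the 8 mRNAs in the 24 libraries, by region, genotype and fraction, with 1 point per library and a line at the mean of 3 replicates with bars of ± 1 SD. *Eprs1* lies lower in all Heavy groups than in all Total groups, and *Atf4*, *Atf5* and *Ddit3* are lowest in Acb KI Heavy.

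The comparison of Heavy with Total asks which share of an mRNA rides on large polysomes, relative to the typical mRNA, since both kinds of library were scaled to a common set of genes. The 8 mRNAs did not behave as one group. *Eprs1* was lower in Heavy in both regions of both genotypes, *Ddit3* was lower in Heavy in the Acb of both genotypes, *Atf4* and *Atf5* were lower in Heavy in the Acb of KI mice, and *Ifrd1* was higher in Heavy in the DS of both genotypes. *Atf4* was also higher in Heavy in the DS of KI mice. *Ppp1r15a*, *Ppp1r15b* and *Slc35a4* did not pass the test in any of the 4 comparisons, though each passed under some other settings given with its values.

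The count of members that passed was read against the share of all genes that passed the same test. In the Acb of wt mice 2 of 8 members passed an adjusted p of 0.05, both lower in Heavy, where 23.1% of 16687 genes passed and 11.6% passed as lower. For KI mice 4 of 8 passed in the Acb, all lower in Heavy, where 19.2% passed and 9.74% passed as lower. In the DS of wt mice 1 was higher and 1 lower, where 24.8% of 16544 genes passed, and in the DS of KI mice 2 were higher and 1 lower, where 25.5% passed. The median log2 Heavy over Total of the 8 members was -0.30, -0.64, -0.06 and 0.30 in the Acb of wt, the Acb of KI, the DS of wt and the DS of KI mice, against 0.04, 0.04, 0 and 0.06 over all genes tested. All of these tests were quasi-likelihood tests of edgeR, Benjamini-Hochberg over all genes.

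*Atf4* encodes the transcription factor that switches on genes of amino acid supply and stress resistance. It was at 70.7, 41.5 and 50.6 CPM in the 3 Heavy libraries of the Acb of KI mice and at 81.0, 84.8 and 90.8 CPM in the 3 Total libraries. The groups did not overlap, and Heavy was below Total in every replicate, with a log2 Heavy over Total of -0.66 ± 0.19 (SE, adjusted p = 0.0126, edgeR, Benjamini-Hochberg).

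Wild-type Acb libraries held *Atf4* at 119.7, 64.9 and 66.4 CPM in Heavy and at 89.2, 92.6 and 98.4 CPM in Total. Replicate 1 was above and replicates 2 and 3 below all of the Total libraries, and the log2 Heavy over Total of -0.16 ± 0.19 did not pass the test (adjusted p = 0.629, edgeR, Benjamini-Hochberg). In the DS of KI mice *Atf4* was at 117, 108 and 166 CPM in Heavy and at 75.5, 97.3 and 84.5 CPM in Total. Here every Heavy library exceeded every Total library, with a log2 Heavy over Total of 0.60 ± 0.17 (adjusted p = 0.00573, edgeR, Benjamini-Hochberg). The DS of wt mice showed overlapping values, with 119.9, 96.1 and 173 CPM in Heavy, 102, 127 and 135 CPM in Total and a log2 of 0.07 ± 0.17.

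Both calls rested on single libraries. Without Acb KI Heavy replicate 2 the value in the Acb of KI mice was -0.50 (adjusted p = 0.118) and without DS KI Heavy replicate 3 that in the DS of KI mice was 0.39 (adjusted p = 0.125), or 0.52 (adjusted p = 0.0542) without DS KI Total replicate 1, all by edgeR, Benjamini-Hochberg.

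*Atf5*, a paralogue of *Atf4* that drives mitochondrial and protein-folding stress genes, had the widest range of replicate values, from -1.85 to 0.96. Its levels in the Acb of KI mice were 9.89, 4.32 and 5.13 CPM in Heavy and 11.2, 15.9 and 18.6 CPM in Total, again without overlap. The log2 Heavy over Total was -1.25 ± 0.33 (adjusted p = 0.00582, edgeR, Benjamini-Hochberg), a 2.38-fold lower level in Heavy, and -1.02 (adjusted p = 0.0592) without Acb KI Heavy replicate 2. The Acb of wt mice gave 15.7, 9.78 and 9.04 CPM in Heavy and 11.5, 14.5 and 24.4 CPM in Total, with overlap and a log2 of -0.53 ± 0.32 (adjusted p = 0.261, edgeR, Benjamini-Hochberg). In the DS the values of *Atf5* overlapped in both genotypes, with a log2 of -0.18 ± 0.28 in wt and 0.32 ± 0.28 in KI mice.

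*Ddit3* had the lowest Heavy over Total of the 3 transcription factor mRNAs in each comparison, a difference between genes that was not tested. In the Acb of wt mice it was at 21.8, 19.1 and 13.2 CPM in Heavy and at 26.3, 31.9 and 33.6 CPM in Total. No Heavy library reached the lowest Total library, and the log2 Heavy over Total was -0.76 ± 0.24 (adjusted p = 0.0158, edgeR, Benjamini-Hochberg). For KI mice the Acb libraries were at 13.5, 9.58 and 9.80 CPM in Heavy and at 22.4, 26.3 and 32.3 CPM in Total. The groups again did not overlap, and the log2 was -1.30 ± 0.24 (adjusted p = 0.000122, edgeR, Benjamini-Hochberg), a 2.47-fold lower level in Heavy.

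In the DS *Ddit3* overlapped between fractions, with 25.2, 23.3 and 33.4 CPM in Heavy and 28.0, 41.4 and 29.9 CPM in Total for wt mice, and 23.9, 27.1 and 32.3 CPM in Heavy and 30.2, 30.7 and 24.2 CPM in Total for KI mice. The call in the Acb of KI mice held without each library in turn, with values of -1.48 to -1.16. That in the Acb of wt mice was lost without Acb wt Total replicate 2 (-0.73, adjusted p = 0.0512), Total replicate 3 (-0.69, adjusted p = 0.0604) or Heavy replicate 3 (-0.58, adjusted p = 0.141), by edgeR, Benjamini-Hochberg.

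The mRNAs of the phosphatase subunits did not pass the test in the main fits, and their difference from the transcription factor mRNAs was not tested. *Ppp1r15a*, the stress-induced subunit, was the least abundant member per length. Its log2 Heavy over Total ranged from -1.33 in DS wt replicate 2 to 1.35 in DS wt replicate 1. In the Acb of KI mice it was at 9.35, 9.58 and 5.78 CPM in Heavy and at 13.4, 14.2 and 10.4 CPM in Total, which did not overlap, while the log2 of -0.62 ± 0.29 did not pass the test (adjusted p = 0.143, edgeR, Benjamini-Hochberg). With a replicate block and the transcript length trend removed together it was -0.83 (adjusted p = 0.0379, edgeR, Benjamini-Hochberg).

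*Ppp1r15b*, the constitutive subunit, leaned to Heavy in 11 of 12 replicates, with log2 values from -0.02 to 0.77. Wild-type Acb libraries were at 87.6, 87.8 and 113 CPM in Heavy and at 75.2, 73.1 and 66.2 CPM in Total. These did not overlap, and the log2 of 0.42 ± 0.17 did not pass the test (adjusted p = 0.0744, edgeR, Benjamini-Hochberg). It passed with all 24 libraries in one fit (0.47, adjusted p = 0.0299), with the 6 compared alone (0.42, adjusted p = 0.0453), with upper quartile scaling (0.46, adjusted p = 0.0494) and with the transcript length trend removed (0.62, adjusted p = 0.00681, edgeR, Benjamini-Hochberg). The DS of wt mice was alike, with 61.9, 76.1 and 63.1 CPM in Heavy, 50.3, 57.4 and 49.8 CPM in Total and a log2 of 0.32 ± 0.16 (adjusted p = 0.158, edgeR, Benjamini-Hochberg), and 0.66 (adjusted p = 0.00191) with the transcript length trend removed.

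*Ifrd1* was on the heavy side in 10 of 12 replicates. In the DS of wt mice it was at 58.3, 44.0 and 47.8 CPM in Heavy and at 29.9, 32.0 and 29.2 CPM in Total, without overlap and with a log2 Heavy over Total of 0.69 ± 0.19 (adjusted p = 0.00471, edgeR, Benjamini-Hochberg). In the DS of KI mice it was at 39.9, 54.3 and 56.4 CPM in Heavy and at 36.9, 37.9 and 27.8 CPM in Total, also without overlap, with a log2 of 0.56 ± 0.19 (adjusted p = 0.0224, edgeR, Benjamini-Hochberg). The latter call was lost without DS KI Total replicate 3 (0.43), Heavy replicate 2 (0.49) or Heavy replicate 3 (0.47). The Acb values of *Ifrd1* overlapped in both genotypes, with a log2 of 0.41 ± 0.22 in wt and 0.02 ± 0.22 in KI mice.

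*Slc35a4*, with 18 upstream ATGs, had a log2 Heavy over Total of 0.14 ± 0.19 and -0.30 ± 0.19 in the Acb of wt and KI mice and 0.19 ± 0.18 and 0.28 ± 0.18 in the DS. In the Acb of KI mice it passed with the coding length trend removed (-0.66, adjusted p = 0.00998) and with a replicate block and the transcript length trend removed (-0.50, adjusted p = 0.0475, edgeR, Benjamini-Hochberg). In the DS its 6 replicates lay between 0.21 and 0.29. Its transcript is 97.9% identical over 974 bases to the processed pseudogene *Gm5866*, so its counts are uncertain where short reads could have come from either.

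*Eprs1* alone passed the test in all 4 comparisons. It was at 25.1, 23.7 and 33.0 CPM in Heavy and at 62.1, 74.4 and 49.4 CPM in Total in the Acb of wt mice, and at 21.6, 27.8 and 38.6 CPM against 58.3, 51.0 and 54.0 CPM in the Acb of KI mice. The DS gave 37.5, 26.8 and 29.6 CPM in Heavy against 51.9, 58.3 and 59.6 CPM in Total for wt mice and 31.5, 32.6 and 33.4 CPM against 53.7, 52.9 and 62.5 CPM for KI mice. Heavy was below Total in 12 of 12 replicates, and no group of Heavy libraries overlapped its Total libraries. The log2 Heavy over Total was -1.19 ± 0.20 (adjusted p = 2.66e-05) and -0.89 ± 0.20 (adjusted p = 0.0013) in the Acb of wt and KI mice, and -0.89 ± 0.18 (adjusted p = 0.000125) and -0.79 ± 0.18 (adjusted p = 0.000513) in the DS, all by edgeR, Benjamini-Hochberg. These calls held without each library in turn.

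Coding length moved with these ratios. Across 11659 genes, longer coding sequences had lower Heavy over Total, with a Spearman rho of -0.57 in the Acb of wt, -0.31 in the Acb of KI, -0.61 in the DS of wt and -0.68 in the DS of KI mice, across genes that are not independent replicates. *Ddit3*, with 168 codons, and *Eprs1*, with 1512, are the shortest and the longest of the members. When the trend was removed from each library, *Ddit3* passed the test as lower in Heavy in the DS as well, with -0.78 (adjusted p = 0.00446) in wt and -0.60 (adjusted p = 0.0399) in KI mice. Also gained were *Atf5* in the Acb of wt mice (-0.93, adjusted p = 0.0365), *Ppp1r15b* in the Acb (0.53, adjusted p = 0.0248) and DS (0.56, adjusted p = 0.00966) of wt mice, and the call of *Slc35a4* given above. *Eprs1* lost its calls in the DS, with -0.22 (adjusted p = 0.492) and -0.13 (adjusted p = 0.74), while *Atf4* and *Ifrd1* lost theirs in the DS of KI mice, with 0.36 (adjusted p = 0.139) and 0.48 (adjusted p = 0.0813), all by edgeR, Benjamini-Hochberg. 

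Among genes of like coding length several members ranked low in the Acb, with *Ddit3* and *Atf5* the lowest. Without the trend *Ddit3* stood at percentile 1.56 of genes in the Acb of wt mice, 0.995 in the Acb of KI mice, 6.14 in the DS of wt mice and 10.7 in the DS of KI mice. *Atf5* stood at percentiles 4.21, 0.515, 13.6 and 42.9 in the same order, and *Atf4* at 21.6, 4.45, 36.3 and 78.2. *Ppp1r15a* stood at 25.7, 11.3, 46.3 and 95.8, and *Slc35a4* at 37.4, 12.8, 42.0 and 47.6. *Ppp1r15b* stood at 90.8, 69.2, 86.1 and 77.6, and *Ifrd1* at 74.4, 35.3, 90.9 and 86.5. *Eprs1* moved inward to 10.99, 16.4, 30.1 and 39.1.

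**Figure D3:**
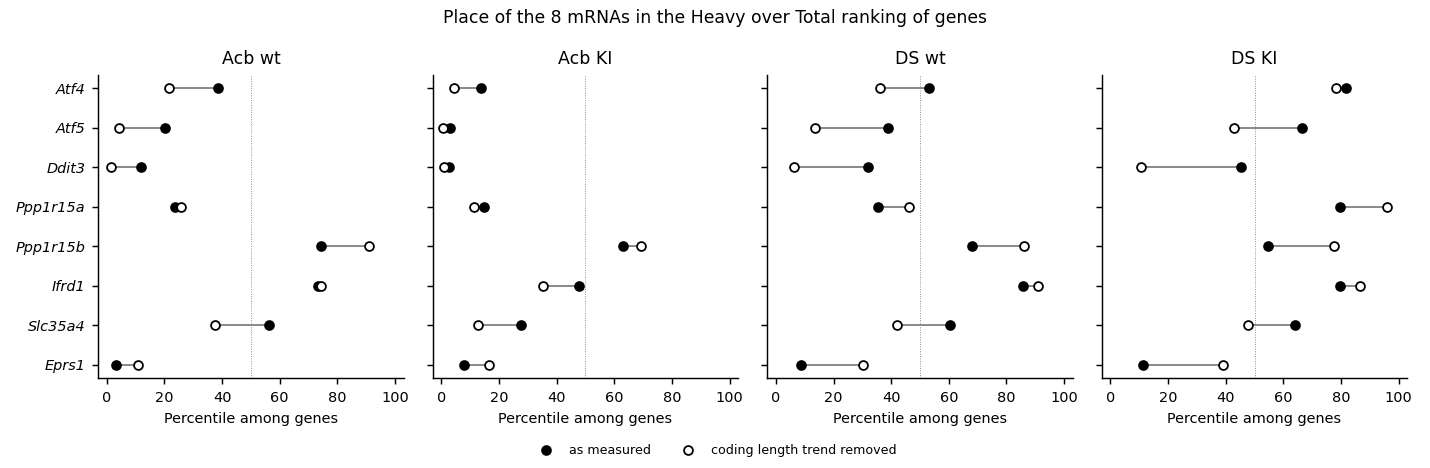
Percentile of each of the 8 mRNAs among genes by log2 Heavy over Total, in 1 panel for each region and genotype, as measured (filled, 11979 genes) and with the coding length trend removed (open, 11659 genes). *Ddit3* shifts down to percentile 10.7 or lower in every panel without the trend, and *Eprs1* shifts up.

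A Heavy and a Total library of the same replicate number were set against each other. By the methods, part of each lysate was kept as input RNA and part was loaded on a gradient. The methods do not state that equal replicate numbers mark the same lysates. The replicates of a group differed widely, and they differed alike for several members. The 3 replicates whose Heavy library was low in *Bc1* (Acb wt 3, Acb KI 2 and Acb KI 3) were the 3 with the lowest Heavy over Total of all 12 for *Atf4* (-1.03 to -0.57, others -0.51 to 0.98), *Atf5* (-1.85 to -1.42, others -0.73 to 0.96), *Ddit3* (-1.71 to -1.34, others -0.83 to 0.42) and *Slc35a4* (-0.52 to -0.28, others -0.05 to 0.40). They were not the lowest for *Eprs1*, where 2 of them were among the 3 highest. The Spearman rho of Heavy over Total with coding length was -0.39 to -0.04 in these 3 replicates and -0.66 to -0.40 in the other 9.

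With these 3 Heavy libraries left out, as was decided once the data had been seen, the lone Acb KI Heavy library was assumed to vary like the other groups. *Ddit3* in the Acb was then at -0.59 (adjusted p = 0.131) in wt and -1.01 (adjusted p = 0.0746) in KI mice, *Atf4* in KI mice at -0.29 (adjusted p = 0.625) and *Atf5* at -0.63 (adjusted p = 0.546), by edgeR, Benjamini-Hochberg. *Eprs1* kept its call in the Acb of both genotypes, with -1.36 and -1.35. The called Acb values of *Atf4*, *Atf5* and *Ddit3* were thus smaller without these libraries, which stand apart in *Bc1*, and fewer libraries were left. In the length trend Acb wt 3 (rho of -0.39) lay next to Acb KI 1 (-0.40), with Acb KI 2 at -0.31 and Acb KI 3 at -0.04. The part of these differences in the result was not tested.

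**Figure D4:**
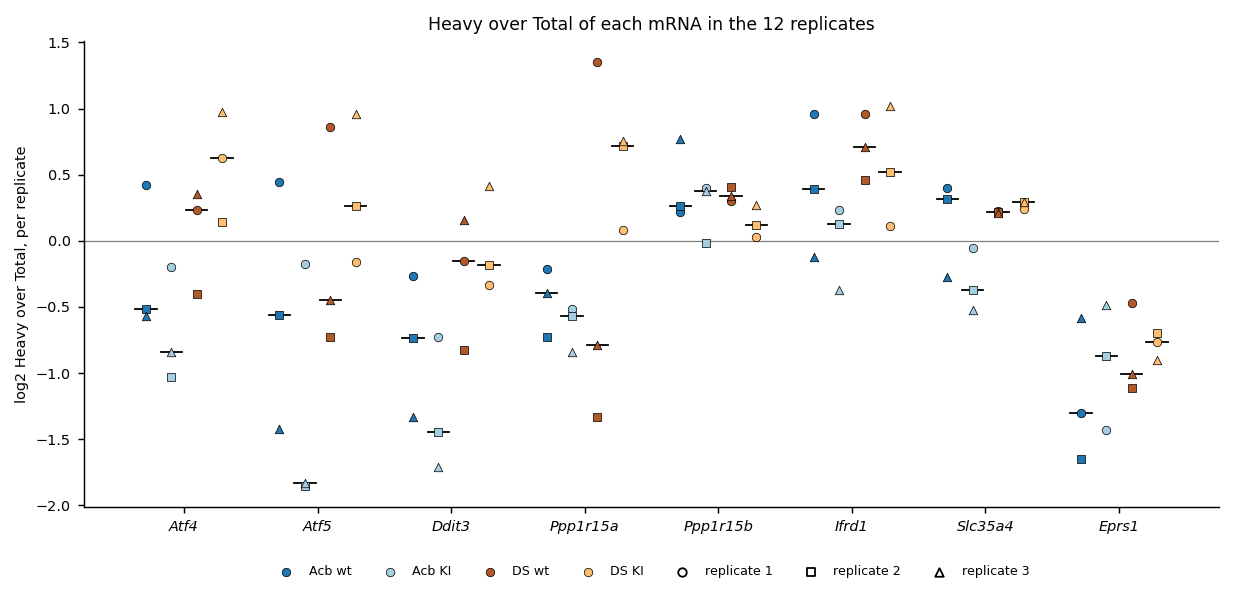
Log2 Heavy over Total of each of the 8 mRNAs in the 12 replicates, by region and genotype (colour) and replicate number (shape), with a line at the median of 3. The replicates low in *Bc1* (Acb wt triangle, Acb KI square and triangle) are the 3 lowest for *Atf4*, *Atf5*, *Ddit3* and *Slc35a4*, while all 12 values of *Eprs1* lie below 0.

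The comparison of KI with wt mice asks whether loss of rpS6 phosphorylation altered these mRNAs. Of the 8 members, 0 passed the test in any of its 6 forms. The paper itself reported many mRNAs that differed between genotypes in the Acb, by DESeq2 in heavy polysomes and by a test of translational efficiency. The shares of all genes given here are those of the edgeR fits. For the change of Heavy over Total with genotype, 0 of 8 passed in the Acb (0% of 16687 genes passed) and 0 of 8 in the DS (0% of 16544 genes), with 0 and 1 members at an unadjusted p under 0.05 (11.9% and 4.9% of all genes) and 0 members by the Wald test of DESeq2. In Heavy alone the shares of genes were 0% in the Acb and 0.044% in the DS, with 4 and 1 members at an unadjusted p under 0.05 (21.7% and 6.42% of all genes). In Total alone they were 0.0065% and 0.122%, with 0 and 4 such members (2.96% and 9.07% of all genes). DESeq2 called 0 members in these except *Atf4* in DS Total.

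In the Acb 7 of 8 members had a lower Heavy over Total in KI than in wt mice. The log2 difference was -0.72 ± 0.46 for *Atf5*, -0.54 ± 0.34 for *Ddit3*, -0.50 ± 0.27 for *Atf4* and 0.29 ± 0.29 for *Eprs1*. Its median was -0.42 over the 8 members and 0.01 over all genes tested. The Heavy libraries low in *Bc1* were Acb KI 2, Acb KI 3 and Acb wt 3, and their part in this was not tested. The lowest adjusted p of the 8 members was 0.46 (edgeR, Benjamini-Hochberg). Heavy against Total within the Acb passed for *Atf4* and *Atf5* in KI mice only and for *Ddit3* in both genotypes, without a called difference between genotypes. In Acb Heavy libraries *Ddit3* was at -0.72 ± 0.23 KI over wt (unadjusted p = 0.00705, adjusted p = 0.126, edgeR, Benjamini-Hochberg), with 1 of 3 KI libraries inside the wt range.

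In DS Total libraries *Atf4* was at 75.5, 97.3 and 84.5 CPM in KI and at 102, 127 and 135 CPM in wt mice. The groups did not overlap, and the log2 KI over wt of -0.51 ± 0.13 had an unadjusted p of 0.000168 and an adjusted p of 0.0876 (edgeR, Benjamini-Hochberg). The Wald test of DESeq2 called it, with -0.51 and an adjusted p of 0.0301, and so did edgeR without the filter on low counts (adjusted p = 0.0139, Benjamini-Hochberg). In DS Heavy the same mRNA did not differ beyond its spread, at 117, 108 and 166 CPM in KI and 119.9, 96.1 and 173 CPM in wt mice (log2 0.05 ± 0.20).

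The comparison of Acb with DS asks whether the regions differ within a genotype, and here the Heavy libraries of KI mice stood out. In these 6 of 8 members were lower in the Acb, where 18.6% of 16108 genes passed, 10.7% as lower. Their log2 Acb over DS was -1.27 ± 0.22 for *Atf4*, -1.38 ± 0.30 for *Atf5*, -1.35 ± 0.23 for *Ddit3*, -1.05 ± 0.28 for *Ppp1r15a*, -0.99 ± 0.21 for *Ifrd1* and -0.87 ± 0.20 for *Slc35a4* (adjusted p of 0.000339 to 0.0107, edgeR, Benjamini-Hochberg). For *Atf4* this set 70.7, 41.5 and 50.6 CPM in the Acb against 117, 108 and 166 CPM in the DS, and for *Ifrd1* 29.8, 26.7 and 19.3 CPM against 39.9, 54.3 and 56.4 CPM. *Ppp1r15b* was at 0.35 ± 0.17 and *Eprs1* at -0.16 ± 0.21 without passing the test. The call of *Ppp1r15a* was lost without DS KI Heavy replicate 3 (-0.86, adjusted p = 0.0554, edgeR, Benjamini-Hochberg). Markers of other cell types moved with the region in the same libraries. The 6 of cortical excitatory neurons summed to 108 to 168 CPM in the Acb and 765 to 989 CPM in the DS, and the 6 of astrocytes to 1809 to 2110 CPM and 738 to 1438 CPM, with none at 0, and their part in the result was not tested.

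In Heavy libraries of wt mice 1 of 8 members passed, where 8.15% of 16143 genes did. It was *Ppp1r15b*, with 87.6, 87.8 and 113 CPM in the Acb against 61.9, 76.1 and 63.1 CPM in the DS, and a log2 Acb over DS of 0.57 ± 0.17 (adjusted p = 0.0461, edgeR, Benjamini-Hochberg). In Total libraries of wt mice it was again *Ppp1r15b* alone, at 75.2, 73.1 and 66.2 CPM against 50.3, 57.4 and 49.8 CPM (0.44 ± 0.15, adjusted p = 0.0496, edgeR, Benjamini-Hochberg), where 12.7% of 15557 genes passed. Both calls of *Ppp1r15b* were lost in 5 of the 6 fits that left out a library, with adjusted p up to 0.282 and 0.158 (edgeR, Benjamini-Hochberg). In Total libraries of KI mice 0 of 8 passed by edgeR and by DESeq2, with 1 at an unadjusted p under 0.05 (21.7% of all genes), where 10.9% of 15575 genes passed.

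The difference in Heavy over Total between regions set these apart from changes in abundance. In KI mice 3 of 8 members had a lower Heavy over Total in the Acb than in the DS, where 5.87% of 16639 genes passed, 3.94% as lower. The log2 differences were -1.22 ± 0.25 for *Atf4* (adjusted p = 0.000892), -1.52 ± 0.45 for *Atf5* (adjusted p = 0.029) and -1.23 ± 0.33 for *Ddit3* (adjusted p = 0.015), by edgeR, Benjamini-Hochberg. For *Atf4* the replicates were at -0.20, -1.03 and -0.84 in the Acb and 0.63, 0.15 and 0.98 in the DS. For *Ddit3* they were at -0.73, -1.45 and -1.71 in the Acb and -0.34, -0.18 and 0.42 in the DS. The Acb and DS replicates did not overlap for either mRNA, which describes the called difference and is no separate support. When each of the 12 libraries was left out in turn, the call held in 12 fits for *Atf4*, 9 for *Ddit3* and 5 for *Atf5*, whose lowest and highest values were -1.96 and -1.29.

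In wt mice 0 of 8 members passed by edgeR or DESeq2 and 0 had an unadjusted p under 0.05 (4.6% of all genes), where 0% of 16684 genes passed, with log2 differences of -0.25 ± 0.27, -0.38 ± 0.43 and -0.48 ± 0.32 for *Atf4*, *Atf5* and *Ddit3*. Whether the regional difference itself differs between genotypes was not tested. With the Heavy libraries low in *Bc1* left out, the Heavy comparison in KI mice called *Atf4* alone of the 6 (-0.86, adjusted p = 0.0431), and the 3 differences in Heavy over Total were -0.84, -0.89 and -0.93, with adjusted p of 0.142, 0.714 and 0.449 (edgeR, Benjamini-Hochberg). The Wald test of DESeq2 called *Ppp1r15a* in addition to the 3 (-1.19, adjusted p = 0.0457). *Ddit3* also lost its call with the coding length trend removed, at -0.82 (adjusted p = 0.171, edgeR, Benjamini-Hochberg).

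**Figure D5:**
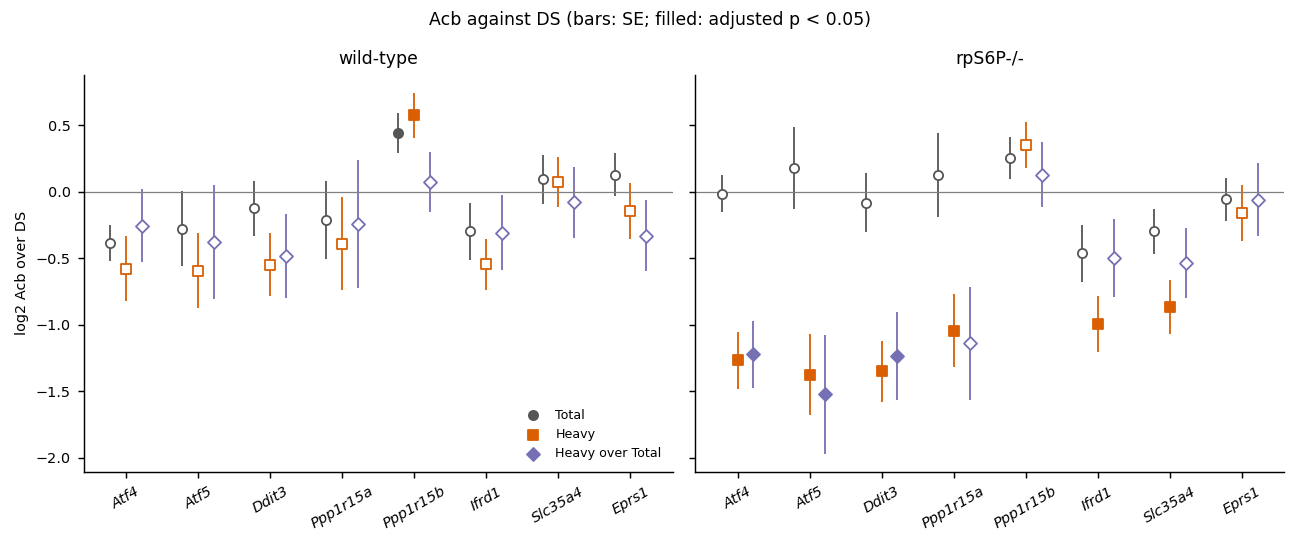
Log2 Acb over DS of each of the 8 mRNAs in Heavy and in Total libraries and for Heavy over Total, in wt and KI mice, with bars of ± 1 SE and filled points for an adjusted p under 0.05. In Heavy libraries of KI mice 6 of the 8 members lie below 0 with a filled point, while their Total values lie between -0.46 and 0.18 with open points.

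The machinery that reads upstream frames was measured alongside, in gene lists without the members. The values of named genes below are log2 Heavy over Total ± SE in the Acb of wt mice, where each passed the test unless said otherwise. The counts, medians and values of these lists are as measured, and the trend on coding length was not removed from them. The counts of every list are to be read against the shares of all genes tested. Higher and lower in Heavy were 11.5% and 11.6% in the Acb of wt mice and 9.5% and 9.74% in the Acb of KI mice. In the DS they were 12.8% and 12% for wt mice and 13.4% and 12.1% for KI mice. Of 10 tested genes for eIF2 kinases and the eIF2 phosphatase, 4 were higher and 1 lower in Heavy in the Acb of wt mice, 4 and 1 in the Acb of KI mice, 4 and 2 in the DS of wt mice and 3 and 2 in the DS of KI mice. *Gcn1*, which activates the kinase GCN2 on stalled ribosomes, was at -2.03 ± 0.23, while *Eif2ak1*, the haem-regulated eIF2 kinase, was at 0.75 ± 0.16 and *Ppp1cc*, a catalytic phosphatase subunit, at 0.65 ± 0.14. The median of this list was -0.00, 0.32, 0.00 and 0.02 in the 4 comparisons, in the order used for the medians of the members. Of the 8 subunits of eIF2 and of its exchange factor eIF2B, 3 were higher and 0 lower in each of the 4 comparisons, with *Eif2s2* (eIF2β) at 0.66 ± 0.15 and *Eif2b1* at 0.65 ± 0.19. The medians were 0.21, 0.43, 0.33 and 0.30.

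Of the 13 factors of start codon selection and reinitiation, 6 were higher and 1 lower in the Acb of wt mice, 3 and 0 in the Acb of KI mice, 8 and 0 in the DS of wt mice and 7 and 1 in the DS of KI mice. *Mcts1*, part of the MCTS1-DENR complex that supports reinitiation after upstream frames, was at 1.11 ± 0.18 and at 0.84, 0.89 and 1.11 in the other 3 comparisons, and its retrogene copy *Mcts2*, which shares sequence with it, was at 1.12 ± 0.33. *Eif5b*, which joins the ribosomal subunits, was at -0.77 ± 0.18. The median log2 of this list was 0.38, 0.23, 0.62 and 0.64.

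Targets of ATF4 were called lower more often than higher in 3 of the 4 comparisons. Of 38 tested, 3 were higher and 12 lower in Heavy in the Acb of wt mice, 4 and 3 in the Acb of KI mice, 2 and 9 in the DS of wt mice and 2 and 10 in the DS of KI mice. *Aars1*, alanyl-tRNA synthetase, was at -1.40 ± 0.16 and *Aldh18a1*, which starts proline synthesis, at -0.99 ± 0.25, with *Cebpg*, a bZIP partner of ATF4, at 0.65 ± 0.18 and *Gpt2*, an alanine transaminase, at 0.50 ± 0.17. The medians were -0.39, -0.11, -0.29 and -0.23. Among 14 relatives of the members, 1 was higher and 2 lower in the Acb of wt mice, 0 and 2 in the Acb of KI mice, 1 and 2 in the DS of wt mice and 1 and 2 in the DS of KI mice. *Iars1* (-1.21 ± 0.20) and *Lars1* (-1.16 ± 0.21), which like *Eprs1* sit in the multi-synthetase complex, were lower in Heavy in all 4 comparisons, and *Eef1e1*, a small scaffold protein of that complex, was at 0.78 ± 0.21. The medians of the relatives were -0.07, -0.06, 0.03 and 0.06.

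Of 10 tested mRNAs with other described upstream frames, 3 were higher and 0 lower in Heavy in the Acb of wt mice, 4 and 0 in the Acb of KI mice, 1 and 1 in the DS of wt mice and 1 and 0 in the DS of KI mice. *Azin1*, the antizyme inhibitor of polyamine synthesis, was at 0.48 ± 0.15 and the phosphatase *Ptp4a1* at 0.72 ± 0.25. The median of this list was 0.33, 0.41, 0.34 and 0.26 in the 4 comparisons, above the median of all genes, where that of the members was below it in all but the DS of KI mice.

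Of 17 bZIP partners and relatives of ATF4, 4 were higher and 0 lower in the Acb of wt mice, 4 and 0 in the Acb of KI mice, 4 and 1 in the DS of wt mice and 2 and 1 in the DS of KI mice, with *Xbp1*, the spliced factor of the unfolded protein response, at 0.54 ± 0.17 and medians of 0.40, 0.39, 0.55 and 0.36. Of 20 genes of the unfolded protein response, 2 were higher and 3 lower in the Acb of wt mice, 4 and 0 in the Acb of KI mice, 3 and 2 in the DS of wt mice and 3 and 5 in the DS of KI mice, with the chaperone *Dnajb11* at 0.55 ± 0.20, *Hyou1* at -0.87 ± 0.17 and *Sel1l* at -0.66 ± 0.17 and medians of -0.07, 0.13, -0.05 and -0.29. Of 15 immediate early genes, 0 were higher and 4 lower in the Acb of wt mice, 2 and 1 in the Acb of KI mice, 0 and 4 in the DS of wt mice and 0 and 3 in the DS of KI mice. *Npas4* was at -1.12 ± 0.30 and *Jun* at -0.91 ± 0.24, and the medians were -0.33, 0.17, -0.26 and -0.16. The difference in Heavy over Total between regions of KI mice was the test that called 3 members. In it 5.87% of 16639 genes passed, 1.93% as higher and 3.94% as lower. Of the lists, 0 of 38 targets of ATF4 passed. Lower were 2 of 13 factors of start codon selection, and higher were 2 of 15 immediate early genes. Also higher was 1 gene in each of the lists of eIF2 kinases and phosphatase, other upstream frames and unfolded protein response, lists that share members.

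Over the 24 libraries the CPM of *Atf4*, *Atf5* and *Ddit3* rose and fell together, with a Pearson r on the log2 scale of 0.82 for *Atf4* and *Atf5*, 0.79 for *Atf4* and *Ddit3* and 0.86 for *Atf5* and *Ddit3*. The libraries share tissue sources and fall into fractions, so r is given as a description. *Ppp1r15b* ran against them, at -0.62 with *Atf4* and -0.67 with *Ddit3*. Among 11978 other genes with a mean of 50 or more reads, the profile most like *Atf4* was that of *Ypel3* (0.94), most like *Ddit3* that of *Gpx4* (0.92), which encodes a glutathione peroxidase, and most like *Atf5* that of *Aes* (0.89). The next were *Suds3* and *Vti1b* for *Atf4*, *Gfra4* and *Timm10b* for *Ddit3*, and *Dgcr6* and *Usf2* for *Atf5*. For *Eprs1* the closest were *Trip12*, *Ank2* and *Usp9x* (0.94, 0.94 and 0.93), for *Ifrd1* *Ccdc124* (0.91), *Lmo4* and *Lgals1*, and for *Ppp1r15b* *Brinp3* (0.88), *Mctp1* and *Arel1*. *Slc35a4* was most like *Gtf2h5* (0.82), followed by *Manbal* and *Mkks*. *Ppp1r15a* had the least close matches, led by *Tomm40l* (0.78), *Ppp1r16b* and *Isca2*.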

How the data were processed

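Total and Heavy RNA of the Acb and DS was sequenced as poly(A)-selected, stranded libraries (single reads of 50 bases). The authors deposited raw counts of reads per gene, 24079 genes in 24 libraries, without normalization or filter. The submitters' processing notes name CASAVA 1.8.2, FastQC, TopHat2 2.0.13, Bowtie2 2.2.3, HTSeq 0.6.1p1 and the builds mm10 and GRCm38. The methods add that alignments with more than 3 mismatches were discarded, that reads on the opposite strand were counted, and that libraries were sequenced in several runs because of bacterial contamination. Each lysate pooled mice, and by the methods a biological replicate joins the Heavy fractions of lysates from 4 mice in all, with other numbers elsewhere in the paper. Heavy fractions held 4 or more ribosomes by the methods and more than 4 by the labels. Replicates are biological, from separate pools of mice.

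Genes with 15 or more reads summed over the libraries compared were tested with edgeR 4.0.16 (TMM scaling, quasi-likelihood F test, legacy settings) in R 4.3.3, with Benjamini-Hochberg adjustment over all genes and a threshold of 0.05. Heavy over Total and its difference between genotypes used the 12 libraries of a region, its difference between regions the 12 libraries of a genotype, and genotype or region within a fraction 6 libraries. Alternatives were DESeq2 1.42.0 (Wald test and size factors), library size without TMM, upper quartile scaling, filterByExpr, no filter beyond 1 read, all 24 libraries or only the 6 compared in one fit, a replicate block, removal of loess trends (span 0.5) on coding or transcript length, and leaving out each library. Upper quartile scaling and leaving out the 3 Heavy libraries low in *Bc1* were chosen after seeing the data. The fit was tested on simulated data. Levels are CPM after TMM, ratios of a replicate are log2 with a prior count of 2, and percentiles and likeness used genes with a mean of 50 or more reads. Leaders and start codons came from GENCODE M21 (GRCm38), and tables and figures were made with Python 3.11.15, pandas 2.3.3, scipy 1.17.1 and matplotlib 3.10.9.

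The 8 members, the 9 gene lists and the marker lists were chosen with earlier results of these data known. Besides the members, the genes named from each list were the 2 in each direction with the largest log2 Heavy over Total in the Acb of wt mice among those with an adjusted p under 0.05 and a mean of 50 or more reads, and for likeness the 3 highest correlations for each member.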

Additional observations from a re-analysis of the deposited data

Results flagged for a closer look

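The contrast of Acb with DS gave different effects in Heavy and in Total libraries of KI mice for 3 of the 8 mRNAs, by the test of the difference itself (edgeR with Benjamini-Hochberg adjustment). The difference in log2 Heavy over Total, Acb minus DS, was -1.22 for *Atf4* (adjusted p = 0.000892), -1.52 for *Atf5* (adjusted p = 0.029) and -1.23 for *Ddit3* (adjusted p = 0.015). For each of the 3 mRNAs the 3 Acb replicates were below the 3 DS replicates. For *Atf5* the margin was narrow, with the highest Acb replicate at -0.18 and the lowest DS replicate at -0.16. The 3 mRNAs were picked by the test of these same libraries, so the separation describes the difference and is no separate support. Of the 3 Acb replicates, 2 had a Heavy library low in *Bc1*, and the part of this in the difference was not tested beyond the values without them given above. Groups here held 3 libraries, too few to examine for outlying samples.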

How the results depend on the processing

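The number of members called, of 8, was recounted under each setting. The share of all genes that passed is given above for the main fits only. Counts under other settings, including DESeq2, are therefore without that reference. Heavy against Total in the Acb of wt mice called 2, and 4 with the coding length trend removed, 5 with a replicate block and the transcript length trend removed, 1 without the 3 Heavy libraries low in *Bc1*, and 1 to 2 when single libraries were left out. In the Acb of KI mice it called 4, 5 with the coding length trend removed, 6 with the replicate block and the transcript length trend removed, 1 without those 3 libraries and 2 to 4 without single libraries. The DS of wt mice gave 2, and 4 with the transcript length trend removed, with or without the replicate block, and the DS of KI mice gave 3, 4 with the transcript length trend removed, 1 with the coding length trend removed and 1 to 3 without single libraries. KI against wt in Acb Heavy called 0, and 2 (*Atf4* and *Ddit3*) with all 24 libraries in one fit. In DS Total it called 0, and 1 (*Atf4*) without a filter, by DESeq2 and with the replicate block (adjusted p = 0.0207, edgeR), and 0 to 1 without single libraries. Acb against DS in Heavy of wt mice called 1, but 0 with DESeq2 size factors or without the low-*Bc1* libraries, 2 with all 24 libraries or either length trend removed, 3 with the replicate block, and 0 to 1 without single libraries. In Heavy of KI mice it called 6, 1 without the low-*Bc1* libraries, and 5 to 6 without single libraries. In Total of wt mice it called 1, 2 without a filter or by DESeq2, 0 with all 24 libraries or the replicate block, and 0 to 1 without single libraries. The regional difference in Heavy over Total of KI mice called 3, 4 by DESeq2, 2 with either length trend removed, 0 without the low-*Bc1* libraries and 1 to 4 without single libraries. The cause of these shifts was not tested.

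By the methods, input and Heavy RNA came from the same lysates, but that equal replicate numbers mark the same lysates is not stated. The main fits did not pair them. Residuals of Heavy and Total libraries of the same number correlated with r between -0.04 and 0.07, 0 of 12 pairs above 0.1. A block on replicate number left the number of called members at 2, 4, 2 and 3 in the Heavy against Total comparisons of the Acb of wt, the Acb of KI, the DS of wt and the DS of KI mice. In comparisons of genotypes or regions the residual correlations were -0.29 to 0.32. For single members, 1147 of 1216 values under other settings kept their side of the threshold, 29 lost a call and 40 gained one. Direction changed with a call in 0 of them. Some values without a call changed sign, such as *Atf4* in the DS of wt mice, from 0.07 to -0.13 with the coding length trend removed. Leaving out single libraries gave 960 values, of which 31 lost a call, 4 gained one and 0 changed direction with a call. Depth limits *Ppp1r15a* most, with as few as 91 reads in a library.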
